A study of Mus musculus with 12 samples.

Results

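The RNA-Seq data of mouse oocytes were examined for 10 genes that carry, buffer and sense zinc, chosen by gene symbol, out of the 24562 genes listed in the count table. They comprised 4 zinc importers of the ZIP family (Slc39a6, Slc39a10, Slc39a8 and Slc39a14), 3 genes of the ZnT family of zinc exporters (Slc30a1, Slc30a5 and Slc30a9), the metallothioneins Mt1 and Mt2, and Mtf1. The mice were CD-1 females that had received neither a transgene nor hormones, and oocytes were taken from their antral follicles at postnatal day (PND) 13, PND 16 or PND 40. Mice of PND 16 had been divided by body weight into small and large. Each of these 4 cohorts was represented by 3 pools of 18 to 45 oocytes, and each pool was 1 sequencing library. Following the study, PND 16 large and PND 40 oocytes were grouped as competent, able to resume meiosis in culture and reach metaphase II, and PND 13 and PND 16 small oocytes as non-competent. The groups thus differ in age as well as in competence, and a pool averages oocytes of different sizes. Competence was assigned by cohort, and a label need not hold for every oocyte of a pool. Between small and large mice, the paper describes a difference in the share of competent oocytes. Its authors did not show those data because the animals were few, so the split by weight rests on limited evidence.

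Zinc enters the cytoplasm through ZIP proteins and leaves it, for the outside of the cell or for organelles, through ZnT proteins. Metallothioneins are small cysteine-rich proteins that bind zinc and other metals. MTF1 is a transcription factor that senses free zinc through its zinc fingers and binds metal response elements, short motifs in the promoters of the metallothionein genes and of Slc30a1. Mouse oocytes take up large amounts of zinc during meiotic maturation, zinc holds the egg in meiotic arrest, and zinc is released in bursts called zinc sparks when the egg is activated.

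The promoters of Mt1, Mt2 and Slc30a1 are shown because these genes are known targets of MTF1 that differed widely in level. Slc30a1 was well expressed, whereas Mt1 and Mt2 mRNA was close to absent. Each window holds 250 bases before and 50 bases after the first base of the RefSeq gene, on build GRCm38.p6 and read in the direction of the gene, and the annotated first base need not be the start used in oocytes. Capitals mark matches to the core of the element, TGCACNC or TGCGCNC, or to their reverse complements, GNGTGCA and GNGCGCA, where N is any base and matches on each strand were counted. Mt1 lies at chr8:94178839-94179138 (plus strand).
Mt1: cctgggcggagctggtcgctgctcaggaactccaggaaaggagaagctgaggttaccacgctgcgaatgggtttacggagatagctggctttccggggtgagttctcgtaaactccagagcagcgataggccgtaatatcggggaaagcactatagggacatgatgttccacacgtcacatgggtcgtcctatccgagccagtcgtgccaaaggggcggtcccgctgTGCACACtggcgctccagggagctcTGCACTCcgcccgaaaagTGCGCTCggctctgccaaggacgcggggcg
The window of Mt2 lies at chr8:94172368-94172667 (plus strand).
Mt2: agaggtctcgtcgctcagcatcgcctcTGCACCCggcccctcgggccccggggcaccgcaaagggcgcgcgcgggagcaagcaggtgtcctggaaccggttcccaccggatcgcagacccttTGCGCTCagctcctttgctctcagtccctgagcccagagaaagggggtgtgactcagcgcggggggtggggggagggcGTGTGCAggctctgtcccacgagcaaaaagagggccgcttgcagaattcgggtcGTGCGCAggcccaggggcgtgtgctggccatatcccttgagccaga
The window of Slc30a1 lies at chr1:191906531-191906830 (plus strand).
Slc30a1: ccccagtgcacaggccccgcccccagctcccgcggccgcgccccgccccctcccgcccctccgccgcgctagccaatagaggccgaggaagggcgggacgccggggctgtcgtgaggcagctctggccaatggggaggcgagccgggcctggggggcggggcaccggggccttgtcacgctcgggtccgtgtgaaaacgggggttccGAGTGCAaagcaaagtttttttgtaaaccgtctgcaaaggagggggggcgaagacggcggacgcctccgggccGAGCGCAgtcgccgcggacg
The Mt1 window held 3 matches, the first 23 bases before the annotated first base, the Mt2 window held 4, and the Slc30a1 window held 2. Of 32851 windows of this length over all genes, 25.7% held at least 1 match, 7.11% at least 2, 1.97% at least 3 and 0.517% at least 4. Of the 8 genes of the list with a window, Slc30a5 held 1 match, and Slc39a8 held 1 match in 1 of its 2 windows and none in the other. A further 3 (Slc39a10, which had 2 windows, Slc30a9 and Mtf1) held none, which says only that these letters were absent from these bases. No window was at hand for Slc39a6 and Slc39a14. A match is a description of the letters and not evidence of binding.

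The 12 libraries held between 17671193 and 27418358 counted reads. Expression is given as CPM, counts per 1000000 counted reads, with TMM factors, the trimmed mean of M-values, to make pools comparable, so that 3 counts, taken as the floor, corresponded to 0.110 to 0.178 CPM. CPM is a share of the counted reads of a pool, so higher and lower levels are relative and are not amounts per oocyte. A filter on low counts kept 13943 genes for testing, including 9 of the 10 members, and left out Mt2. The identity of the cells was checked with marker genes. The 14 oocyte markers summed to between 16001 and 20640 CPM in every pool, and hemoglobin genes (Hbb-bs, Hbb-bt and Hba-a1) had no counts. The 14 granulosa and cumulus cell markers, from the somatic cells that surround the oocyte, summed to 572 and 622 CPM in PND 13 replicates 1 and 3 and to 657 CPM in PND 16 small replicate 2. In the other 9 pools they summed to between 217 and 373 CPM. The gap was wider for some single genes, with Inha at 97.0 to 143 CPM in the former 3 pools and at 2.34 to 20.7 CPM in the other 9, and Gja1 at 93.1 to 128 and at 1.37 to 34.9 CPM. In contrast, Nr5a2 stayed between 87.8 and 146 CPM, Esr2 between 74.1 and 148 CPM and Cyp19a1 between 12.7 and 24.3 CPM in every pool. A marker sum thus includes genes that varied far less between pools than Inha and Gja1. Where results are given without these 3 pools, PND 13 was represented by replicate 2 alone and PND 16 small by replicates 1 and 3. Comparisons with PND 13 then rested on 1 PND 13 library, and only their effect sizes are given. Fewer pools entered the fit, and the share of all genes called changed in both directions. It fell from 15.0% to 11.7% in competent vs. non-competent oocytes. It rose from 6.19% to 8.74% in PND 16 large vs. PND 16 small. In PND 40 vs. PND 16 small it rose from 17.2% to 18.3%, and in PND 40 vs. PND 16 large from 3.66% to 4.29%. In a pool of cells, more somatic cells and more RNA per somatic cell cannot be told apart.

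Zinc importers of the plasma membrane were the most abundant members, and Mt1 and Mt2 mRNA was close to absent. To compare genes, mean CPM over the 12 pools was divided by the length of all annotated exons in kb. Among 32 genes of zinc handling (the 10 members and 22 others), Slc39a6 ranked 1 with 116 CPM per kb and Slc39a10 ranked 2 with 115 CPM per kb, an order that turned with the shortest coding transcript of each as its length (1401 and 1404 CPM per kb). Next among the members came Mtf1 with 32.0, Slc30a1 with 25.5 and Slc30a5 with 16.5 CPM per kb. Far lower were Slc30a9 with 1.83, Slc39a8 with 0.384, Mt1 with 0.242, Mt2 with 0.179 and Slc39a14 with 0.175 CPM per kb. Slc30a3, a vesicular zinc exporter best known from synaptic vesicles and named here after its value was seen, ranked 3 with 87.9 CPM per kb. Exon lengths include every annotated transcript, and with the shortest coding transcript (549 bases for Mt1 and 388 for Mt2) the metallothioneins reached only 0.548 and 0.271 CPM per kb. By that length Slc30a9 reached 53.3 CPM per kb, above Slc30a5 with 44.2, and Slc39a14 reached 4.93. The order of these genes therefore depends on the length used.

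**Figure D1:**
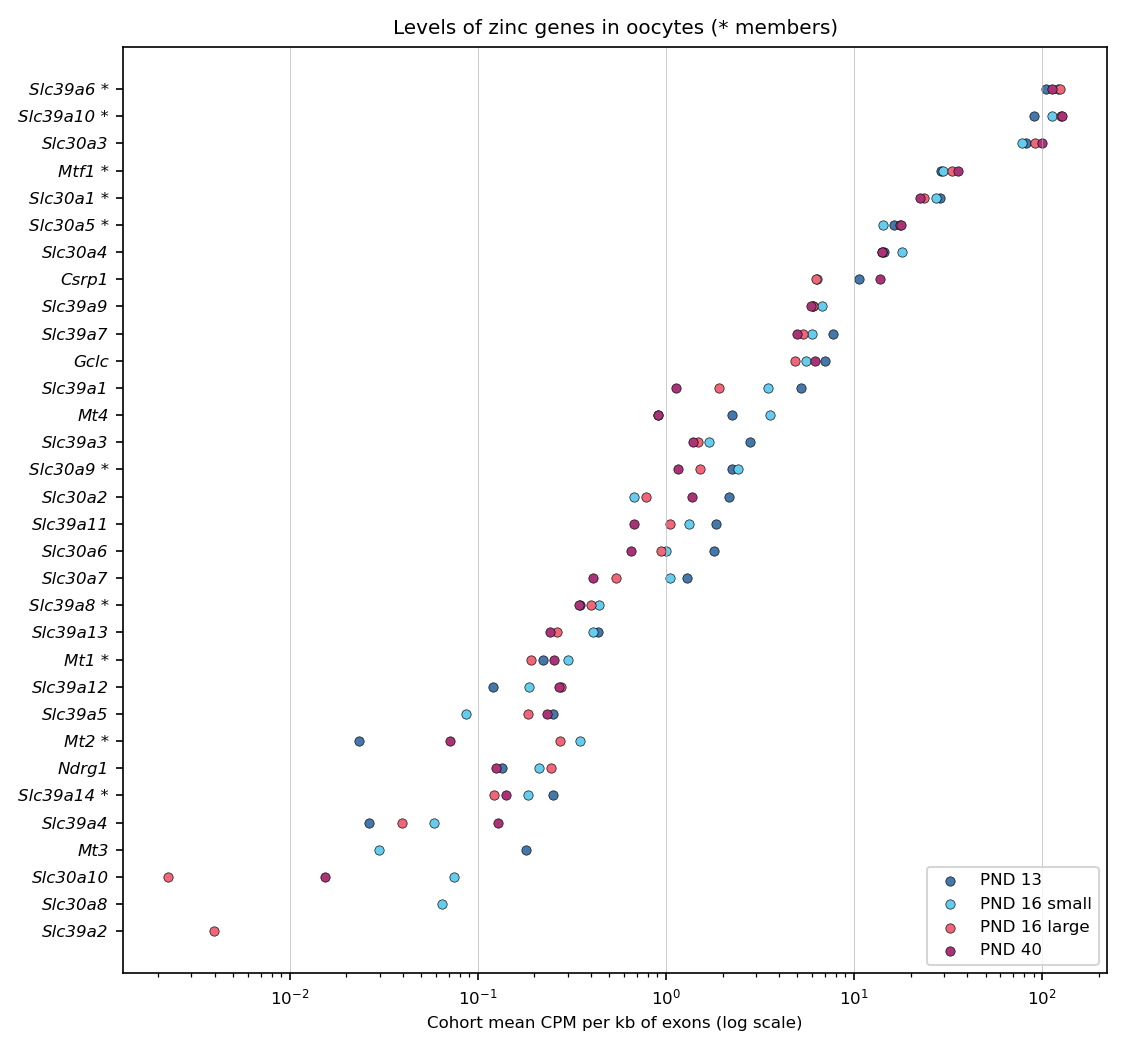
Mean expression of 32 zinc genes in each cohort, in CPM per kb of annotated exons on a logarithmic axis, with the 10 members marked by an asterisk and genes ordered by the mean over all pools (cohort means of 0 are not drawn). Slc39a6 and Slc39a10 lie at the top near 100 CPM per kb, and Mt1, Mt2 and Slc39a14 lie below 1.

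Slc39a10 and Slc39a6 encode ZIP10 and ZIP6, related importers that can form a complex at the cell surface and are the importers known to load zinc into the maturing mouse oocyte. Slc39a10 (minus strand of chr1:46807544-46892852 in GENCODE M21 on GRCm38) measured 589, 564 and 496 CPM in the PND 13 pools and 618, 704 and 748 CPM in the PND 16 small pools. It measured 817, 742 and 759 CPM in the PND 16 large pools and 780, 798 and 762 CPM in the PND 40 pools. Every PND 13 pool lay below every pool of the other cohorts, while PND 16 small overlapped PND 16 large and not PND 40. Each p here and below is from the quasi-likelihood test of edgeR, adjusted over all genes tested by Benjamini-Hochberg. Slc39a10 was higher in competent than in non-competent oocytes by 0.33 ± 0.09 on the log2 scale (SE, n = 6 and 6, 1.25-fold, adjusted p = 0.0108). It rose 1.42-fold from PND 13 to PND 40 (log2 fold change 0.51 ± 0.08, adjusted p = 0.000590) and 1.41-fold from PND 13 to PND 16 large (0.49 ± 0.08, adjusted p = 0.00135), all below the 1.5-fold that the study asked of a differentially expressed gene. The difference between PND 16 small and PND 13, 0.33 ± 0.08, did not pass the test after adjustment (adjusted p = 0.0649).

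Slc39a6 (minus strand of chr18:24579881-24603817) varied less. It measured 429, 433 and 425 CPM in the PND 13 pools, 481, 518 and 483 CPM in PND 16 small, 527, 479 and 510 CPM in PND 16 large, and 456, 468 and 458 CPM at PND 40. PND 13 was the lowest cohort and PND 40 lay between it and the PND 16 cohorts. Both PND 16 cohorts lay above the others in every pool and overlapped each other. Only PND 16 large vs. PND 13 passed the test, with a log2 fold change of 0.23 ± 0.06 (1.18-fold, adjusted p = 0.0115). It no longer passed without PND 16 large replicate 1 or 3 (adjusted p = 0.0799 and 0.0583) or with scaling by total counts (adjusted p = 0.0876). Without the 3 pools with the highest granulosa marker sums, which left 1 PND 13 library, its log2 fold change was 0.21. Competent and non-competent oocytes differed by 0.07 ± 0.06 on the log2 scale (95% interval -0.07 to 0.20).

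The balance between these importers differed between cohorts. The ratio of Slc39a10 to Slc39a6 CPM was 1.37, 1.30 and 1.17 in the PND 13 pools and 1.29, 1.36 and 1.55 in PND 16 small. It was 1.55, 1.55 and 1.49 in PND 16 large and 1.71, 1.70 and 1.67 at PND 40. The PND 40 ratios lay above those of every other pool, with no test made on the ratio. Per kb of exons, Slc39a6 was the more abundant at PND 13, with 105 ± 0.956 against 90.2 ± 7.94 CPM per kb (SD, n = 3), and Slc39a10 was the more abundant at PND 40, with 128 ± 2.89 against 113 ± 1.60 CPM per kb. The values in PND 16 large were 127 ± 6.48 for Slc39a10 and 124 ± 5.95 CPM per kb for Slc39a6, closer than the spread between pools. Summed over both importers and divided by Slc30a1, which exports zinc from the cell, CPM gave ratios of 6.44, 7.17 and 5.98 at PND 13 and of 10.9, 10.6 and 10.1 at PND 40. Ratios were 11.0, 10.2 and 9.83 in PND 16 large, and PND 16 small spanned both levels with 6.06, 9.14 and 10.6.

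**Figure D2:**
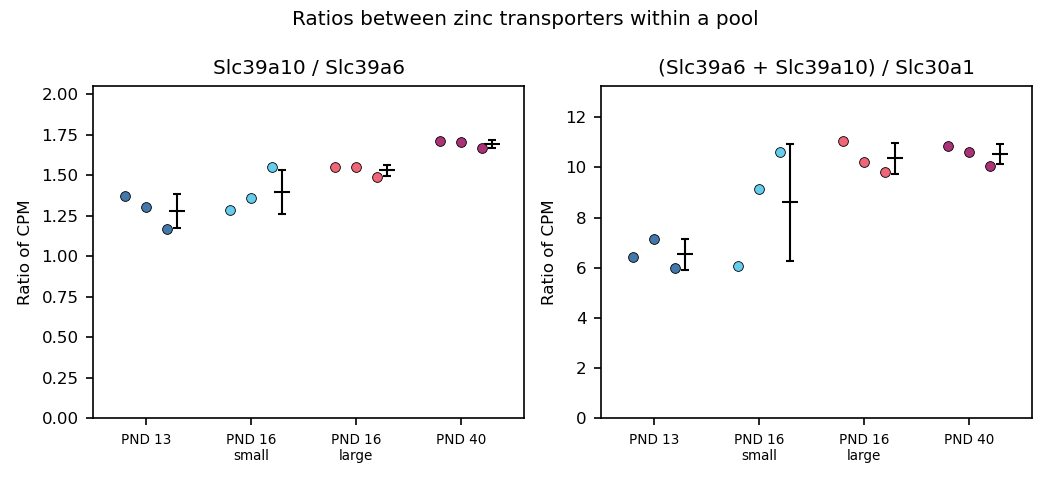
Ratio of Slc39a10 to Slc39a6 CPM (left) and of their sum to Slc30a1 CPM (right) in each pool, with points for the 3 pools of a cohort and bars for mean ± SD. On the left the PND 40 pools, at 1.67 to 1.71, lie above all others, and on the right the PND 13 pools, at 5.98 to 7.17, lie below both competent cohorts.

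Slc39a8 and Slc39a14 encode ZIP8 and ZIP14, importers that also carry manganese, iron and cadmium, and they were scarce and variable. Slc39a8 (chr3:135825279-135888572, plus strand) ranged from 0.696 to 4.44 CPM at PND 13, from 0.680 to 7.53 CPM in PND 16 small, from 1.47 to 4.26 CPM in PND 16 large and from 2.11 to 3.64 CPM at PND 40. The cohorts overlapped throughout, the lowest pool had 14 counts and the highest 127, and the difference between competent and non-competent oocytes was -0.08 ± 0.51 on the log2 scale (95% interval -1.18 to 1.02). Slc39a14 (chr14:70303469-70351425, minus strand) ranged from 0.597 to 4.22 CPM over all pools, with cohort means of 2.63 ± 1.38 at PND 13, 1.95 ± 0.728 in PND 16 small, 1.29 ± 0.752 in PND 16 large and 1.496 ± 0.417 CPM at PND 40 (SD, n = 3). Its log2 fold change in competent oocytes was -0.72 ± 0.36, with an adjusted p of 0.139 and overlapping pools. At this depth and spread the interval for Slc39a14, -1.48 to 0.04, allowed a difference of more than 1.5-fold.

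**Figure D3:**
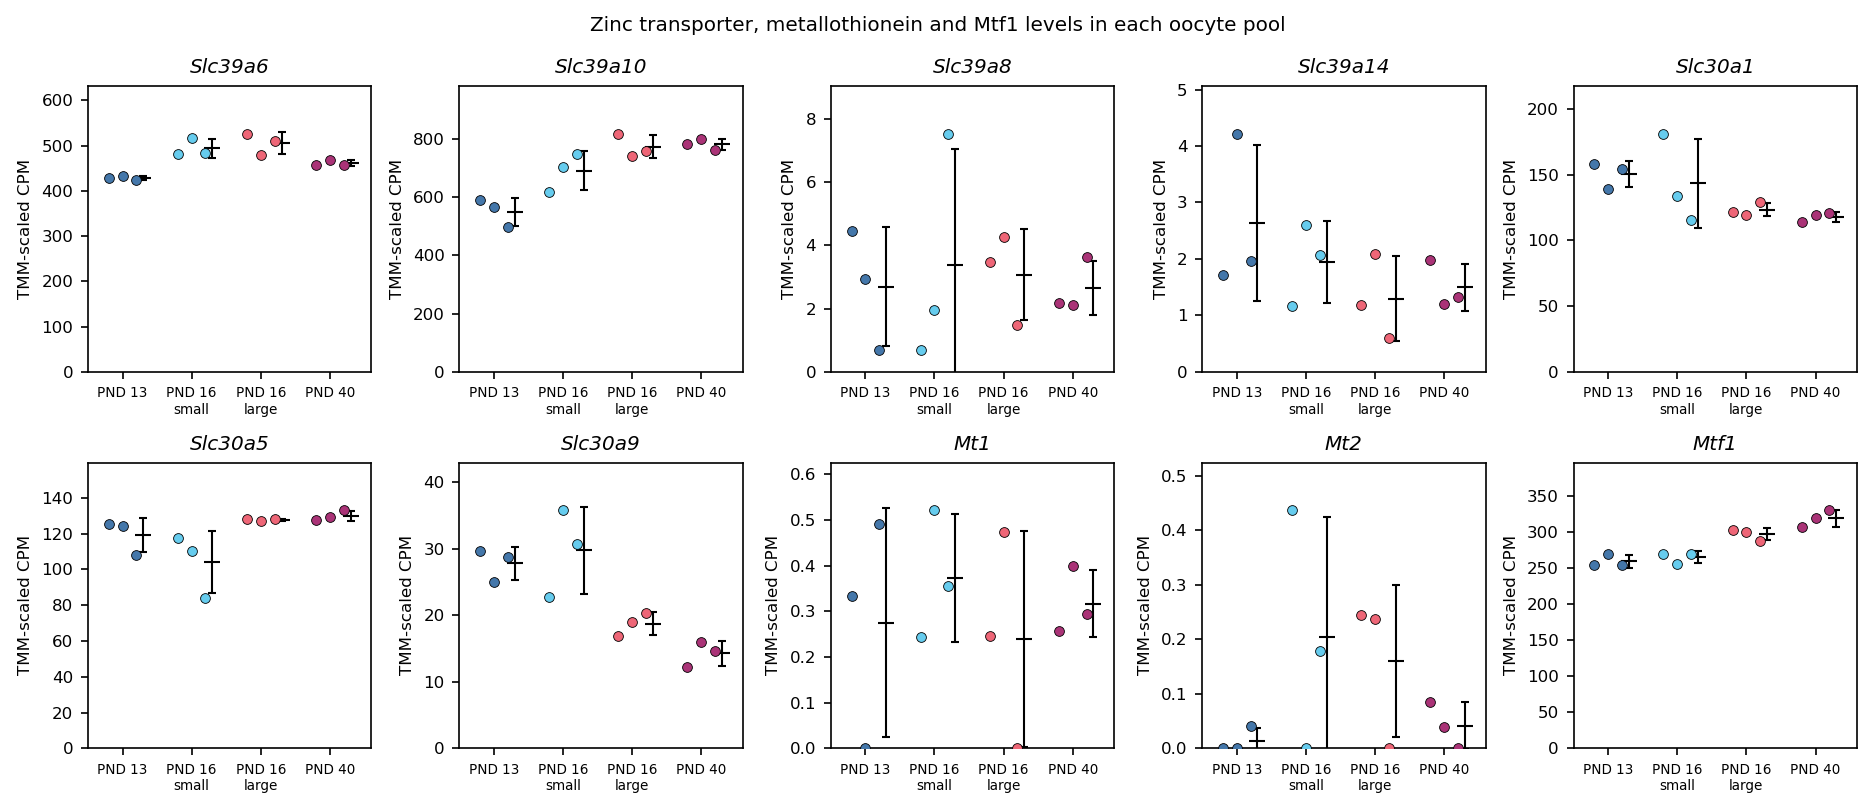
TMM-scaled CPM of the 10 members in each oocyte pool on linear axes that start at 0, with points for the 3 pools of a cohort and bars for mean ± SD (bars that would fall below 0 are clipped). Slc30a9 lies at 12.2 to 20.4 CPM in the competent cohorts and at 22.8 to 35.8 CPM in the non-competent ones, and Mt1 and Mt2 stay below 1 CPM everywhere.

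The exporters did not move together. Slc30a9 encodes ZnT9, a mitochondrial member of the ZnT family, and was the only member past both criteria for differential expression. Slc30a9 (chr5:67306955-67358443, plus strand) measured 29.7, 24.998 and 28.7 CPM in the PND 13 pools and 22.8, 35.8 and 30.8 CPM in PND 16 small. It measured 16.9, 18.9 and 20.4 CPM in PND 16 large and 12.2, 16.0 and 14.7 CPM at PND 40. Every competent pool lay below every non-competent pool, and the PND 40 pools lay below the PND 16 large pools. Slc30a9 was 1.74-fold lower in competent oocytes (log2 fold change -0.80 ± 0.14, adjusted p = 0.000670), 1.95-fold lower at PND 40 than at PND 13 (-0.96 ± 0.17, adjusted p = 0.000812) and 2.09-fold lower at PND 40 than in PND 16 small (-1.06 ± 0.17, adjusted p = 0.000498). It passed the test at -0.57 ± 0.16 (adjusted p = 0.0226) in PND 16 large vs. PND 13 with 1.48-fold, just under the fold criterion. The difference between PND 40 and PND 16 large, -0.39 ± 0.17, did not pass (adjusted p = 0.175).

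The comparison that holds age constant, PND 16 large vs. PND 16 small, gave Slc30a9 a log2 fold change of -0.67 ± 0.16 (1.59-fold lower in PND 16 large, adjusted p = 0.0206). This call was lost without PND 16 large replicate 1 or 2 (adjusted p = 0.0985 and 0.0649) and without PND 16 small replicate 2 or 3 (adjusted p = 0.0571 and 0.0516), and in a model of only the cohorts compared (0.0708). PND 16 small replicate 2 had both the highest Slc30a9 level and the highest granulosa marker sum, and their connection was not tested. Without the 3 pools with the highest granulosa marker sums, Slc30a9 differed by -0.67 on the log2 scale in competent vs. non-competent oocytes (adjusted p = 0.0155). It differed by -0.91 in PND 40 vs. PND 16 small (adjusted p = 0.00323) and, with 1 PND 13 library left, by -0.82 in PND 40 vs. PND 13. It then differed by -0.51 in PND 16 large vs. PND 16 small (adjusted p = 0.0689). In PND 16 large vs. PND 13, Slc30a9 no longer passed without PND 13 replicate 1 or 3 or PND 16 large replicate 1 or 2 (adjusted p from 0.0540 to 0.0853). Without those 3 pools its log2 fold change there was -0.42, with 1 PND 13 library left.

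Slc30a1 encodes ZnT1, the exporter of the plasma membrane and a classical target of MTF1, whose promoter window above held 2 matches. Slc30a1 (chr1:191906767-191913247, plus strand) measured 158, 139 and 154 CPM in the PND 13 pools and 181, 134 and 116 CPM in PND 16 small. It measured 122, 120 and 129 CPM in PND 16 large and 114, 119 and 121 CPM at PND 40. The competent pools lay close together at the lower end, while PND 16 small spanned the whole range. Slc30a1 was lower in competent oocytes by a log2 fold change of -0.28 ± 0.09 (1.22-fold, adjusted p = 0.0251) and lower at PND 40 than at PND 13 by -0.35 ± 0.12 (1.27-fold, adjusted p = 0.0458). The former difference no longer passed without PND 13 replicate 1 or 3, PND 40 replicate 1 or PND 16 small replicate 1 (adjusted p from 0.0516 to 0.0567). The same held without the 3 pools with the highest granulosa marker sums (adjusted p = 0.117, with a log2 fold change of -0.28 as before). The latter no longer passed in 8 of the 12 fits that left out 1 pool, those without PND 13 replicate 1 or 3 or any PND 16 large or PND 40 pool (adjusted p from 0.0513 to 0.129). It also did not pass with a granulosa marker covariate (0.0522). Without the 3 pools, with 1 PND 13 library left, the log2 fold change of PND 40 vs. PND 13 was -0.25. Of its exonic bases, 8.92% are overlapped by 1700034H15Rik on the opposite strand, which had 13 to 71 counts a pool.

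Slc30a5 encodes ZnT5, which exports zinc into the early secretory pathway together with ZnT6, the product of Slc30a6. Slc30a5 (chr13:100802648-100833427, minus strand) measured 125, 124 and 108 CPM at PND 13, 117, 110 and 84.3 CPM in PND 16 small, 128, 127 and 128 CPM in PND 16 large, and 128, 129 and 133 CPM at PND 40. All competent pools lay above all non-competent pools, by a log2 fold change of 0.21 ± 0.08 that did not pass the test (1.15-fold, adjusted p = 0.0694). It passed as a contrast of cohort means (adjusted p = 0.0369) and without PND 13 replicate 2 (0.0451). Slc30a5 was higher at PND 40 than in PND 16 small by 0.32 ± 0.10 (1.25-fold, adjusted p = 0.0323). This difference no longer passed without PND 16 small replicate 3, PND 16 large replicate 2 or 3 or any PND 40 pool (adjusted p from 0.0502 to 0.0932). The same held with a granulosa marker covariate (0.0510) and in a model of only the cohorts compared (0.102).

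Mt1 and Mt2 transcripts stood at the limit of detection in all cohorts. Mt1 (chr8:94179082-94180327, plus strand) had 7, 0 and 12 counts in the PND 13 pools, 5, 11 and 6 in PND 16 small, 6, 12 and 0 in PND 16 large, and 6, 10 and 8 at PND 40. Summed over 279979568 counted reads this was 83 counts, or 0.297 CPM with an exact 95% Poisson interval of 0.236 to 0.368, which covers counting error only. A pool of 0 allows up to 3 counts, 0.117 CPM in PND 13 replicate 2 and 0.119 CPM in PND 16 large replicate 3. Mt1 showed no order of cohorts, and competent and non-competent oocytes differed by -0.21 ± 0.75 on the log2 scale (95% interval -1.80 to 1.39, adjusted p = 0.859). The PND 13 pool without an Mt1 count was also the one with the lowest granulosa marker sum, 217 CPM, and the 3 pools with the highest sums had 7, 12 and 11 counts. The other pool without an Mt1 count, PND 16 large replicate 3, had a sum of 348 CPM, and PND 16 large replicate 2 had 12 counts at a sum of 338 CPM. Their part in the Mt1 level was not tested.

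Mt2 (chr8:94172664-94173568, plus strand) had 0, 0 and 1 counts at PND 13, 9, 0 and 3 in PND 16 small, 6, 6 and 0 in PND 16 large, and 2, 1 and 0 at PND 40. Over all pools this was 28 counts, with an exact 95% Poisson interval of 0.0665 to 0.145 CPM and 5 pools at 0, and Mt2 was not tested. Of the exonic bases of Mt2, 73.5% are overlapped by Gm45774 on the opposite strand, and whether the counting used strand is not given in the sources used here. Gm45774 is not among the genes listed in the count table. The Mt2 count may therefore hold reads of the other gene, or miss reads if that gene took part in the counting. By contrast, no exonic base of Mt1 is overlapped by another gene and none of its 50-base stretches occurs in another gene's transcripts.

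Mtf1, the zinc sensor that drives both genes elsewhere, was by contrast well expressed. Mtf1 (chr4:124802104-124849800, plus strand) measured 255, 269 and 254 CPM in the PND 13 pools and 269, 255 and 270 CPM in PND 16 small. It measured 303, 300 and 287 CPM in PND 16 large and 307, 319 and 330 CPM at PND 40. Every competent pool lay above every non-competent pool, with a log2 fold change of 0.23 ± 0.05 (1.17-fold, adjusted p = 0.00324). Mtf1 was also higher at PND 40 than at PND 13 by 0.30 ± 0.06 (adjusted p = 0.00202), at PND 40 than in PND 16 small by 0.27 ± 0.06 (adjusted p = 0.00424) and in PND 16 large than at PND 13 by 0.19 ± 0.06 (adjusted p = 0.0280). Without the 3 pools with the highest granulosa marker sums, the difference was 0.18 (adjusted p = 0.0579) for competent vs. non-competent oocytes, while PND 40 vs. PND 16 small still passed the test (adjusted p = 0.0206). With 1 PND 13 library left, the difference was then 0.23 for PND 40 vs. PND 13 and 0.13 for PND 16 large vs. PND 13. In PND 16 large vs. PND 13, Mtf1 no longer passed without PND 13 replicate 1 or 3 or any PND 16 large pool (adjusted p from 0.0633 to 0.129). The same held with scaling by total counts (0.215) and with no filter (0.0629). Of the exonic bases of Mtf1, 8.09% are overlapped by 1110065P20Rik on the opposite strand, which had 22 to 207 counts a pool.

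**Figure D4:**
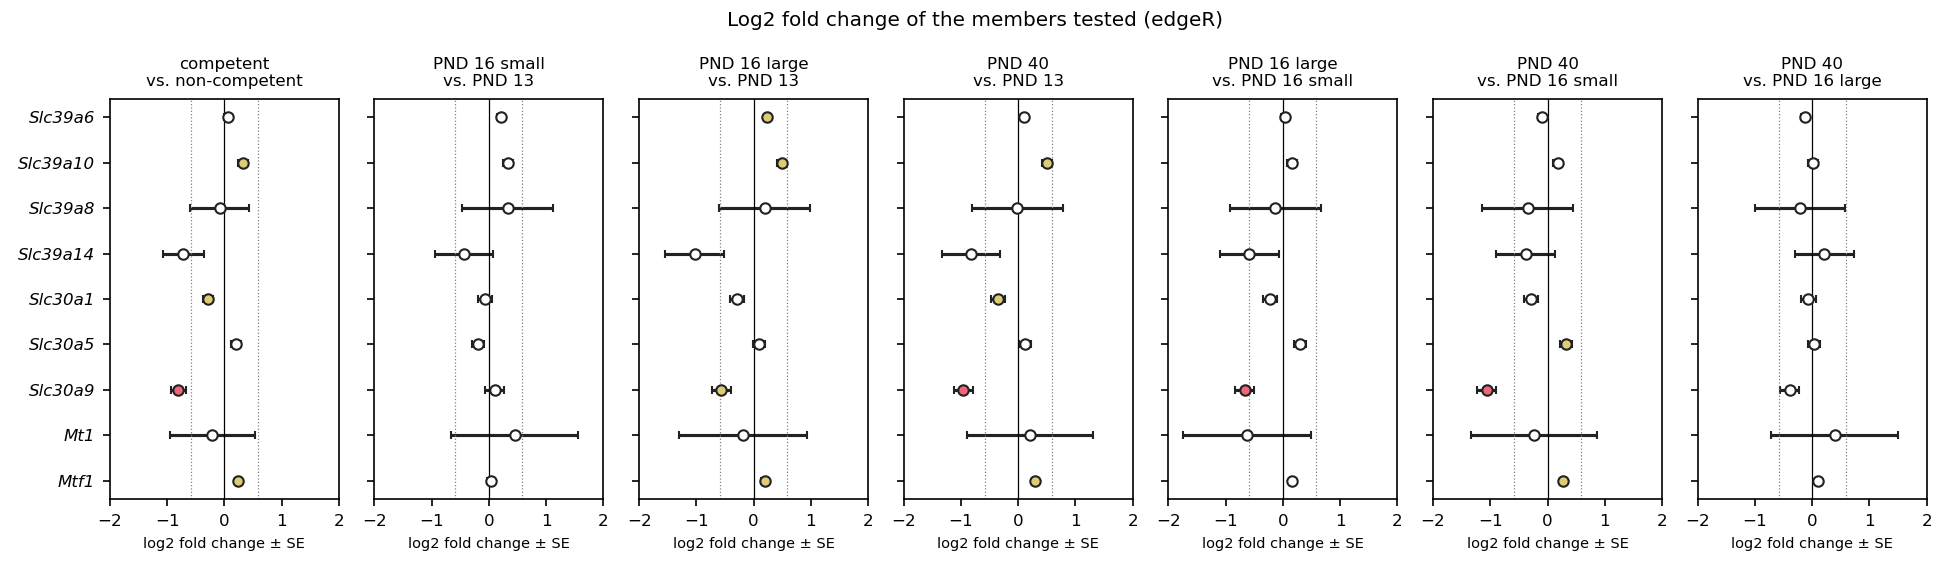
Log2 fold change ± SE of the 9 members tested in each of the 7 comparisons (first group relative to second), with red points for genes past both criteria (adjusted p no higher than 0.05, change 1.5-fold or more), yellow for the adjusted p alone and white for neither, and dotted lines at 1.5-fold. Slc30a9 carries the only red points, in 4 comparisons, and Slc39a10 and Mtf1 lie to the right of 0 wherever they are yellow.

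Counted over the list, few members passed both criteria. In competent vs. non-competent oocytes, 1 of 9 tested members was called, against 15.0% of all genes tested, and 4 passed the adjusted p alone (Slc39a10 and Mtf1 higher, Slc30a1 and Slc30a9 lower), against 30.7%. In PND 40 vs. PND 13, 1 was called, against 18.9%, and the same 4 genes passed the adjusted p in the same directions, against 33.1%. In PND 40 vs. PND 16 small, 1 was called, against 17.2%, and 3 passed the adjusted p, against 30.2%. In PND 16 large vs. PND 16 small, 1 was called, against 6.19%, and no further member passed the adjusted p, against 12.3%. These comparisons share pools and are not independent of each other. Competent and non-competent pools did not overlap for 3 of the 9 tested members (Slc30a5, Slc30a9 and Mtf1). The share of all genes without overlap is not given here, so this count has nothing to be set against.

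No member was called in the remaining comparisons. In PND 16 large vs. PND 13, edgeR called 0 of 9 members, against 13.3% of all genes, and 4 passed the adjusted p alone (Slc39a6, Slc39a10 and Mtf1 higher, Slc30a9 lower), against 25.6%, with 5 at an unadjusted p under 0.05. In PND 16 small vs. PND 13, the non-competent cohorts, edgeR called 0, against 0.373%, and none passed the adjusted p, against 0.925%, with 2 (Slc39a6 and Slc39a10) at an unadjusted p under 0.05. In PND 40 vs. PND 16 large, the competent cohorts, edgeR called 0, against 3.66%, and none passed the adjusted p, against 6.83%, with 2 (Slc39a6 and Slc30a9) at an unadjusted p under 0.05. The share of all genes at an unadjusted p under 0.05 is not given here, so these counts have nothing to be set against. DESeq2 and limma likewise called 0 members in each of the 3 comparisons. The median log2 fold change of the 9 members was -0.08 in competent vs. non-competent oocytes, beside 0.00 over all genes tested, and 0.10 in PND 40 vs. PND 13, beside 0.00.

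Among the other genes of zinc handling, every call except 2 of Csrp1 was a lower level in the competent cohort. Of 22 further ZIP, ZnT, metallothionein and MTF1 target genes, 17 were tested. In competent vs. non-competent oocytes 5 of the 17 were called, beside 15.0% of all genes tested, and all 5 were lower. In PND 40 vs. PND 13 it was 6, beside 18.9%, and in PND 16 large vs. PND 13 also 6, beside 13.3%, all of them lower. Most calls over all genes were lower too, with 25.3%, 33.4% and 26.4% of them higher in the 3 comparisons. The counts rested in part on single pools. Slc39a3 and Slc30a6 both lost their calls in competent vs. non-competent oocytes without any 1 of the PND 13 or PND 40 pools or PND 16 large replicate 3, and Slc39a3, Slc30a2 and Slc30a6 all lost theirs in PND 16 large vs. PND 13 without PND 13 replicate 2 or 3 or PND 16 large replicate 1, which left 3 of these calls each time. Their median log2 fold change was -0.40, -0.63 and -0.72 in these comparisons, beside 0.00, 0.00 and -0.04 over all genes tested. In PND 16 small vs. PND 13 edgeR called 0 of the 17, beside 0.373% of all genes tested. At an unadjusted p under 0.05 there were 7, and the share of all genes at that threshold is not given here.

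Slc39a1, which encodes ZIP1, an importer found in many tissues, measured 14.8, 10.9 and 11.5 CPM at PND 13, 10.4, 6.97 and 7.41 CPM in PND 16 small, 4.79, 4.77 and 4.02 CPM in PND 16 large, and 1.501, 3.46 and 3.01 CPM at PND 40. Its cohorts did not overlap, and it fell 4.64-fold from PND 13 to PND 40 (log2 fold change -2.22 ± 0.29, adjusted p = 0.000124). Slc30a7, which encodes ZnT7, an exporter into the Golgi apparatus, measured 14.4, 14.1 and 14.9 CPM at PND 13, 17.7, 7.63 and 9.90 CPM in PND 16 small, 4.42, 6.74 and 6.84 CPM in PND 16 large, and 5.02, 5.01 and 3.64 CPM at PND 40. Every competent pool lay below every non-competent pool, by 2.48-fold in the mean (-1.31 ± 0.22, adjusted p = 0.000544). Of the exonic bases of Slc30a7, 16.0% are overlapped by Gm43106 and Gm6649 on the opposite strand.

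Slc30a6, the partner of Slc30a5, was lower at PND 40 than at PND 13 (2.01 against 5.54 CPM, log2 fold change -1.46 ± 0.32, adjusted p = 0.00405), while Slc30a5 itself differed by 0.13 ± 0.10 in that comparison (adjusted p = 0.381). Slc39a3, which encodes the importer ZIP3, was lower there by -0.99 ± 0.25 (adjusted p = 0.00917), with means of 5.63 and 11.2 CPM. Without the 3 pools with the highest granulosa marker sums, which left 1 PND 13 library, its log2 fold change was -1.17. Slc39a7, the importer ZIP7 that releases zinc from the endoplasmic reticulum, was lower by -0.63 ± 0.16 (adjusted p = 0.00778), and without those pools by -0.45. Of the exonic bases of Slc39a7, 80.65% are overlapped by Gm20427 on the same strand, so its count may miss reads or hold reads of the other gene. Slc39a11 was lower by -1.45 ± 0.50 (adjusted p = 0.0412), and Slc30a2, which encodes the vesicular exporter ZnT2, was lower in PND 16 large than at PND 13 by -1.45 ± 0.50 (adjusted p = 0.0479). The Slc39a11 and Slc30a2 calls were lost in 8 and 9 of the 12 fits that left out 1 pool.

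**Figure D5:**
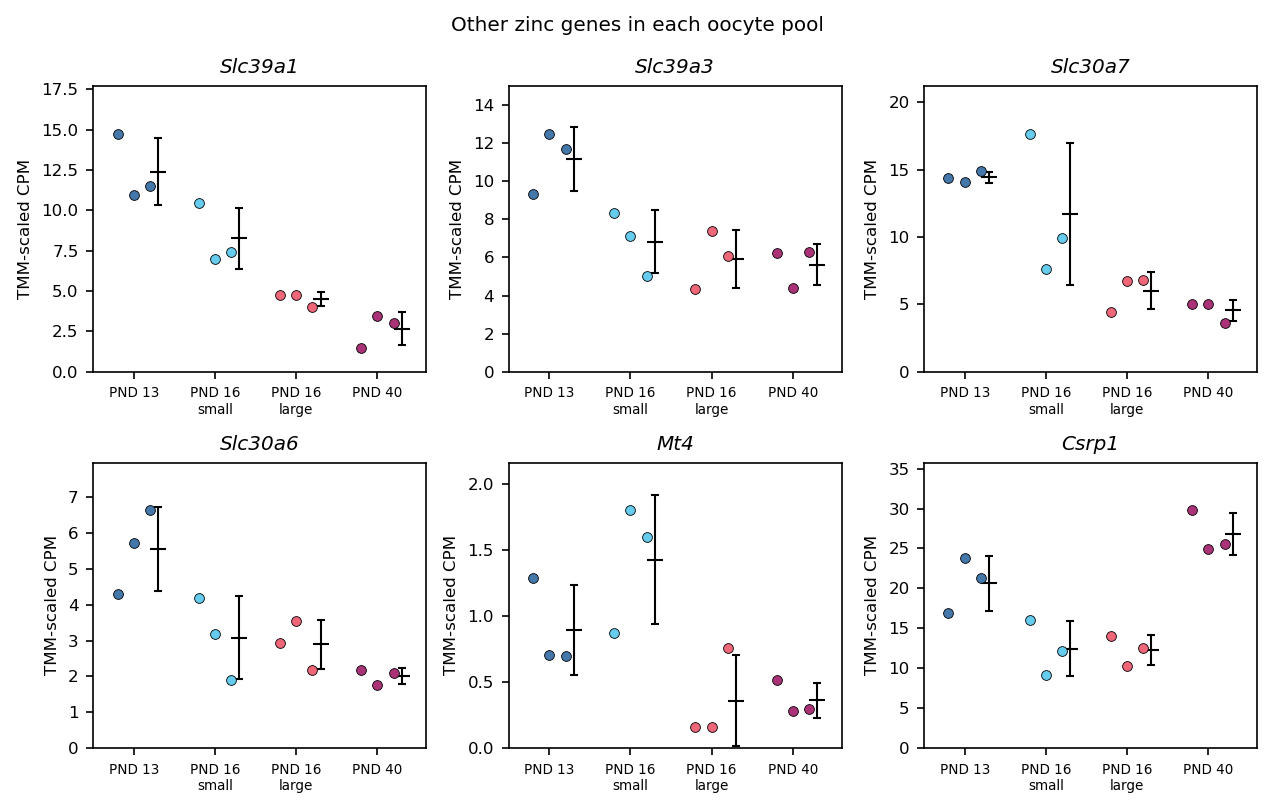
TMM-scaled CPM of 6 further zinc genes in each oocyte pool on linear axes that start at 0, with points for the 3 pools of a cohort and bars for mean ± SD. Slc39a1 steps down from 10.9 to 14.8 CPM at PND 13 to 1.501 to 3.46 CPM at PND 40, and Csrp1 is highest at PND 40.

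Mt4, a metallothionein best known from stratified epithelium, measured 1.29, 0.703 and 0.696 CPM at PND 13, 0.874, 1.80 and 1.60 CPM in PND 16 small, 0.164, 0.158 and 0.756 CPM in PND 16 large, and 0.514, 0.279 and 0.294 CPM at PND 40. It had 4 to 38 counts a pool and was lower in competent oocytes by -1.67 ± 0.47 (adjusted p = 0.0155), although PND 16 large replicate 3 overlapped the non-competent pools and without the 3 pools with the highest granulosa marker sums the log2 fold change was -1.54 (adjusted p = 0.0829). Csrp1, a LIM domain gene known as an MTF1 target, was the only one called higher. It measured 29.8, 24.9 and 25.6 CPM at PND 40 against 14.03, 10.3 and 12.6 CPM in PND 16 large, a log2 fold change of 1.12 ± 0.20 (2.18-fold, adjusted p = 0.00585), and was also higher than in PND 16 small (1.10 ± 0.20, adjusted p = 0.00129). From PND 13 to PND 16 large it was lower by -0.75 ± 0.20 (adjusted p = 0.0143), a call lost without PND 16 large replicate 2 (adjusted p = 0.0609).

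Genes with the most similar pattern were found by the correlation of log2 CPM over the 12 pools, among 11947 other tested genes that averaged 1 CPM or more. For Slc39a10 the 3 highest were Virma (Pearson r = 0.989), Ambra1 (0.985) and Ttk (0.984), and for Slc39a6 they were Dpy19l4 (0.960), Kif2c (0.936) and Il6st (0.926). The pools share their cohort and library, so these values are descriptions. The correlations of Mt1 rested on at most 12 counts a pool and are not given.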

How the data were processed

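RNA-Seq libraries of 12 oocyte pools were analysed. Per the labels, ribosomal RNA was depleted, directional libraries were sequenced as 50 bp reads, and the processing notes name FastQC, STAR, HTSeq, DESeq, DESeq2 and HOMER with build mm10, while versions are not given in the sources used here. The authors deposited raw counts, whole reads counted per gene without normalization, and log2 values. The deposited log2 values were checked against the counts: they are the log2 of the count divided by a size factor, plus 1, with factors within 0.0162% of those of DESeq2. The deposited log2 values were used only as an alternative.

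Pools were grouped by their labelled cohort, with 17671193 to 27418358 counts each. The study states that oocytes of 3 mice per condition made up 3 independent pools, and its methods describe pooled oocytes frozen as replicates. Whether each pool came from 1 mouse is not stated. P-values measure only the spread between these pools. Pools of a cohort differed by more than sampling noise (chi-square per gene 9.40 to 51.8). In R 4.3.3, edgeR 4.0.16 kept genes by filterByExpr (minimum count 10), scaled by TMM and fitted robust quasi-likelihood models, 1 of all 4 cohorts for pairwise comparisons and 1 of competent vs. non-competent pools. P-values were adjusted by Benjamini-Hochberg over 13943 genes, and calls needed an adjusted p no higher than 0.05 and a change of 1.5-fold or more. Standard errors are |log2 fold change| over the root of the F statistic. The fits were tested on simulated data. Alternatives used DESeq2 1.42.0, limma 3.58.1 (pseudocount 1 or 0.1), other scalings, filters and models, a granulosa marker covariate, and left out pools. Leaving out the 3 pools with the highest granulosa marker sums was chosen after seeing the marker levels.

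The members, gene lists and tests were chosen with earlier results of these data known. Named genes were all members, every other listed zinc gene called in any comparison, Slc30a6 and Slc30a7 as relatives of Slc30a5, and the 3 genes most correlated with Slc39a6 and with Slc39a10. The rule also asked for those of Mt1 and Mt2, which are not given because of their low counts. Slc30a3 was named after its value was seen. Coordinates, exons and overlaps come from GENCODE M21 on GRCm38, promoters from RefSeq on GRCm38.p6, and figures from Python 3.11.15 with matplotlib 3.10.9.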

Additional observations from a re-analysis of the deposited data

Results flagged for a closer look

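One value stood apart from its group. Among the 6 competent pools, Slc30a5 in PND 40 replicate 3 measured 133 CPM, the nearest other pool 129 and the lowest 127 CPM, so that its gap to the nearest pool was 0.631 of the range, above Dixon's 95% critical value for 6 pools. Chance marks about 1 in 20 such groups, and 20 groups of the members' values were examined.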

How the results depend on the processing

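Slc30a9 kept its call between the competent and the non-competent group, and at PND 40 against PND 16 small, in every alternative run. At PND 40 against PND 13 it kept its call in every run with more than 1 PND 13 pool. Without the fold criterion the number of members called became 4 in competent vs. non-competent oocytes, 4 in PND 16 large vs. PND 13, 4 in PND 40 vs. PND 13 and 3 in PND 40 vs. PND 16 small. In PND 16 large vs. PND 13, where 0 members were called (13.3%), scaling by total counts gave 1 (14.1%). At least 50 counts in 3 pools gave 1 (15.7%), and leaving out 1 pool gave 0 to 1 (8.37% to 14.8%). With total counts the median over all genes was -0.13 on the log2 scale there and -0.12 in PND 16 small vs. PND 13. In PND 16 large vs. PND 16 small, where 1 was called (6.19%), the count was 0 with a granulosa marker covariate (8.04%). It was 0 in a model of only the cohorts compared (3.38%) and 0 to 1 when leaving out 1 pool (2.44% to 8.25%). Without the 3 pools with the highest granulosa marker sums it was 0 (8.74%).

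The sign in competent vs. non-competent oocytes turned for Slc39a8 and Mt1, neither of which passed the test. Slc39a8, at -0.08, became 0.32 and 0.33 with limma at a pseudocount of 1 and 0.1, 0.06 without PND 13 replicate 1, 0.05 without PND 16 large replicate 3 and 0.41 without PND 16 small replicate 3, and leaving out 1 pool gave -0.29 to 0.41. Mt1, at -0.21, became 0.58 with the granulosa marker covariate, 0.037 without PND 16 large replicate 3 (-0.48 to 0.037 over the pools left out) and 0.53 without the 3 pools. The cause was not tested.

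Replicate numbers did not pair the pools: over 18 pairs of same-numbered pools the correlation of deviations was -0.44 to 0.08, none over 0.1. The replicate block left every count of called members as it was, with a log2 fold change for Slc30a1 in PND 40 vs. PND 13 of -0.34 (adjusted p = 0.0555). Depth limited Mt1, Mt2, Mt4, Slc39a8 and Slc39a14, whose lowest pools had 15 counts or fewer.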
